A study of Canis lupus familiaris with 6 samples.

Results

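The enzymes that build glycans were compared between MDCKII cells grown flat and MDCKII cells grown as cysts. A member was any probe set of the canine array whose single gene symbol belongs to one of these enzyme groups: the GALNT, C1GALT, GCNT, B3GNT, B3GALT, B4GALT, ST3GAL, ST6GAL, ST6GALNAC, ST8SIA, FUT, MGAT, ALG, POMT and EXT or EXTL families, the NDST and HS2ST, HS3ST and HS6ST enzymes of heparan sulfate, and the CHST sulfotransferases. The rule used names only, no measured values, and found 166 of 42924 probe sets, which report on 111 of the 15115 genes named by a single symbol. Of the genes, 73 had 1 probe set and 38 had several. A further 2 probe sets carry several symbols with a matching one among them and were not counted. MDCKII cells are an established epithelial line from dog kidney (Madin-Darby). In the 2D group (3 arrays) they formed a polarized monolayer on plastic, without Matrigel. In the 3D group (3 arrays) each 60 mm dish was coated with 100 µl of Matrigel, an extract of basement membrane, and the medium held 2% Matrigel; there the cells grew as cysts. Both groups are the same line, carry no named genetic change or drug, and were lysed 36 h after plating. Each array was hybridized with biotin-labelled cRNA made from 4 µg of total RNA, and the labels call the replicates biological without saying whether they came from separate days.

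Glycans are built stepwise in the endoplasmic reticulum and Golgi by transferases that each add a given sugar in a given linkage. Mucin-type O-glycans begin with GalNAc on serine or threonine, placed by the GALNT enzymes, and grow through core structures to chains that are capped by sialic acid or fucose. N-glycans begin as a lipid-linked oligosaccharide assembled by the ALG enzymes, are trimmed, and are then branched by the MGAT enzymes. Heparan sulfate chains are polymerized by EXT1 and EXT2 and then sulfated. In kidney epithelia such glycans coat the apical surface, carried by mucins and sialomucins, and join the cell to its basement membrane through proteoglycans and the O-mannose glycans of dystroglycan.

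The deposited values were read as log2 values, on which a difference of 1 is a 2-fold change. They lie on 2 scales, as array medians of 7.06 to 7.08 for replicates 2 and 3 and of 5.42 (2D) and 5.26 (3D) for replicate 1 show. Only the replicate 1 arrays hold values below 0, 246 in 2D and 413 in 3D. Their correlation with the other arrays was 0.861 to 0.872, against 0.983 to 0.997 among those others. The test therefore used the 4 arrays of replicates 2 and 3 (n = 2 per group), and the replicate 1 pair gives a separate difference with no test. That difference had a median of -0.14 over all probe sets, so the sign of a small one is uncertain. The kidney epithelial label was borne out by its markers. For 7 of 8 epithelial markers the brightest probe set lay above the 75th percentile of all probe sets and the remaining one, CDH1, at the 73.9th. The 13 fibroblast, endothelial and leukocyte markers lay between the 14.1th and 70.0th, with 3 above the middle, and none of the 21 markers passed the test. No detection calls are given, so a low value cannot be told from background. Poly-A RNA controls spiked into the samples read higher by 0.99 on 3D replicate 2 and by 0.14 on 3D replicate 3 than the mean of the 2D arrays, and by 0.83 in replicate 1. The excess of 3' over 5' signal, a measure of RNA integrity, was greater on both tested 3D arrays than on both 2D arrays for 2 of the 4 control pairs. The part of either in the results was not tested.

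Most of the enzymes differed little between monolayers and cysts. Of the 166 probe sets, 120 (72.3%, against 69.6% of all probe sets) differed by under 0.25 on the log2 scale, and the median log2 fold change was -0.005, the same as over all probe sets. At a limma adjusted p under 0.05, 9 probe sets of 8 genes were higher in 3D and 5 probe sets of 4 genes were lower. Together they are 8.43% of the members, near the 6.61% called over all probe sets. By direction, 3.65% of all probe sets were called higher and 2.96% lower. By genes, 8 of 111 had a probe set called higher and 4 one called lower, against 5.09% and 4.95% of all named genes (10.0% in either direction). The genes that rose were GALNT12, B3GNT4, ST6GALNAC1, FUT8, EXT2, EXTL3, NDST2 and CHST1, and those that fell were GALNT3, B3GALT5, MGAT2 and MGAT4C. Their limma adjusted p lay between 0.00654 and 0.0478, and 3 of the 166 probe sets, both of GALNT12 and that of MGAT4C, were called and changed at least 2-fold, against 1.78% of all probe sets. Leaving out any 1 of the 4 arrays leaves a group with 1 array, so such fits cannot judge the calls by a test. In them all 14 called probe sets kept their sign. With all 4 arrays 36 members had an unadjusted limma p under 0.05 (21.7%, against 23.5% of all probe sets). With replicate 1 added to the fit, limma called 0 members and 0 to 2 of all 42924 probe sets, depending on the normalization and block. In these fits 0 to 6 members and 105 to 2723 of all probe sets had an unadjusted limma p under 0.05. In 11 of the 14 called probe sets, 3D replicate 2 lay farther from the 2D mean than 3D replicate 3 did, as in 1970 of the 2837 called over all. In cells pooled on an array, fewer cells with a transcript and less of it per cell cannot be told apart.

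**Figure D1:**
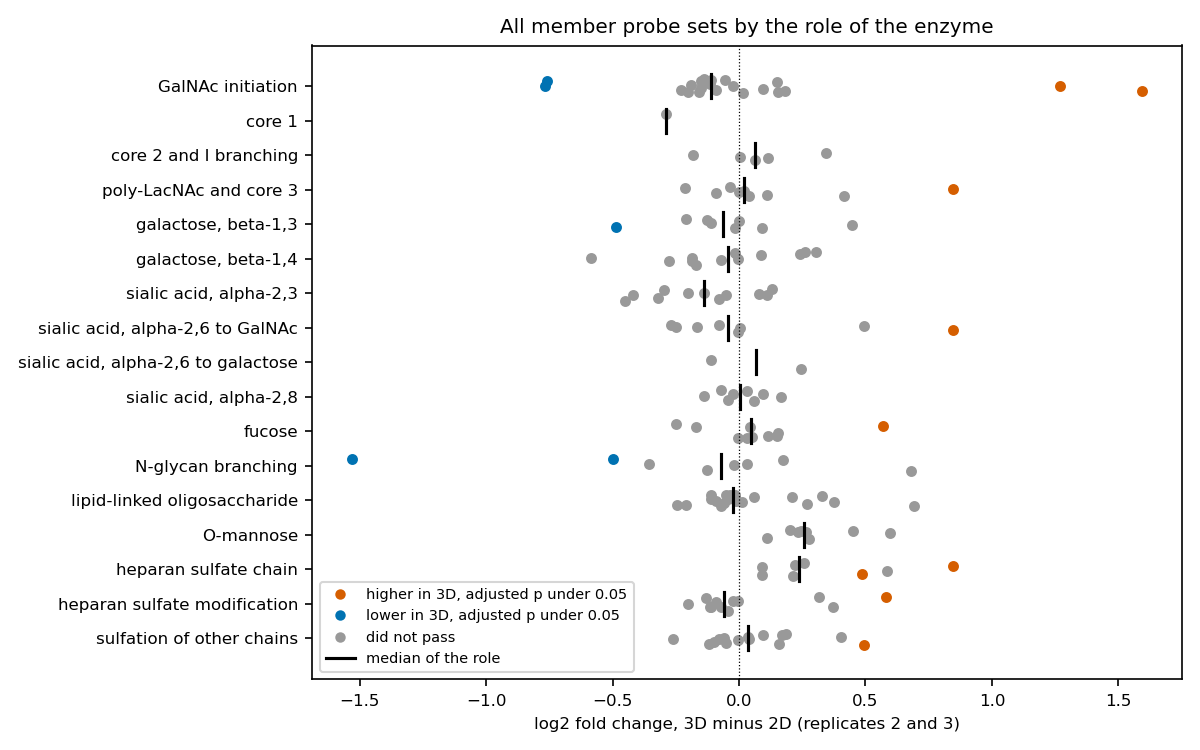
Each point is 1 of the 166 member probe sets, placed by its log2 fold change (3D minus 2D, replicates 2 and 3) on the x axis and by the role of its enzyme on the y axis; orange and blue points passed the limma test and black bars are the median of a role. Most points lie within 0.25 of 0, GALNT12 and MGAT4C lie farthest out, and every probe set of the O-mannose and heparan sulfate chain roles lies above 0.

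The GALNT enzymes, which place the first GalNAc of a mucin-type O-glycan, held both the largest rise of all members and a gene that fell on each of its probe sets. GALNT12, an initiating transferase known from the digestive tract, was measured by 2 probe sets. On the first it read 6.58 and 6.34 in 2D and 7.97 and 8.14 in 3D (log2 values of replicates 2 and 3). Both 3D arrays lay well above both 2D arrays. The rise was 3.02-fold (1.60 on the log2 scale, SE 0.128, n = 2, limma adjusted p = 0.00654). On the second it read 5.66 and 6.27 in 2D and 7.30 and 7.17 in 3D. Here too the groups did not overlap, though the 2D arrays differed from each other by more than the 3D arrays did, and the rise was 2.41-fold (log2 fold change 1.27, SE 0.203, n = 2, limma adjusted p = 0.0253). In replicate 1 GALNT12 differed by 2.42 and by 4.72, the latter the highest difference of any member. Both rest on 2D values, 2.41 and 1.20, under the lower quartile of their array (3.52), which leaves their size uncertain.

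GALNT3, which is known for glycosylating the phosphate hormone FGF23, went the other way. It read 9.43 and 9.63 in 2D and 8.58 and 8.95 in 3D on 1 probe set. On the other it read 10.47 and 10.63 in 2D and 9.63 and 9.95 in 3D. In each case both 3D arrays lay below both 2D arrays, with 3D replicate 2 the lower of the pair. The falls were 1.70-fold and 1.69-fold, with log2 fold changes of -0.765 (SE 0.155, limma adjusted p = 0.0439, and 0.0506 under trend and robust priors) and -0.76 (SE 0.141, limma adjusted p = 0.0355). Replicate 1 differed in the same direction, by -0.26 and -0.39.

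The other 17 GALNT probe sets, of 14 genes, did not pass and lay between -0.23 (GALNT10) and 0.18 (GALNT7). GALNT1, a broadly expressed initiating enzyme, differed by -0.09 and -0.20 on its 2 probe sets. GALNT7, which acts on peptides that already carry GalNAc, differed by 0.18 and 0.15. The group's median was -0.11, and 7 of its 21 probe sets were dim, meaning that their mean over the 4 arrays was no higher than the lower quartile of all probe sets.

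**Figure D2:**
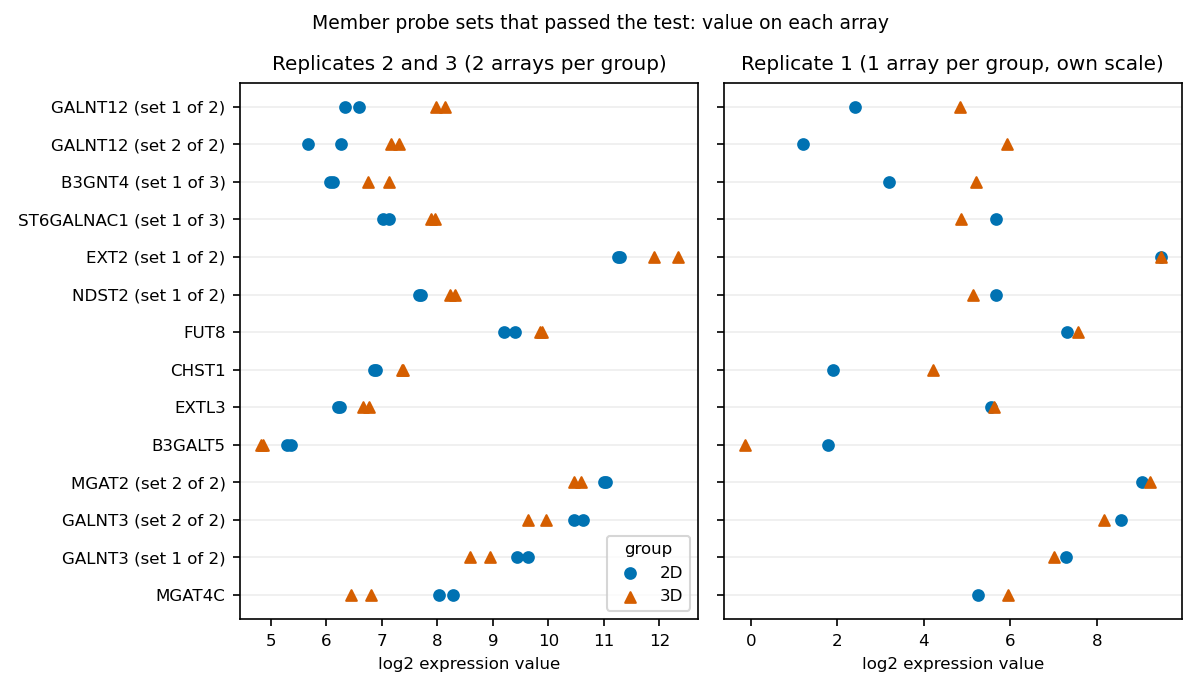
Log2 values on each array (x axis) of the 14 member probe sets that passed the test (y axis; where a gene has several probe sets, the set is numbered in the order of its identifiers), with 2D as blue circles and 3D as orange triangles; the left panel holds replicates 2 and 3 and the right panel replicate 1, on its own scale. In the left panel the groups do not overlap for any of the 14, which were chosen by a test on these same arrays. Of all probe sets 25.1% are without overlap with 3D above and 26.7% with 3D below. In the right panel MGAT4C, MGAT2, NDST2 and ST6GALNAC1 lie in the opposite order, EXT2 reads 9.49 in both groups, and the other 9 keep their order.

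Enzymes that extend and branch the O-glycan core mostly stayed near 0. C1GALT1, which makes the core 1 disaccharide, read 10.76 and 10.74 in 2D and 10.13 and 10.79 in 3D. The groups overlapped, since 1 of the 3D arrays was the lowest and the other the highest, and the difference of -0.29 did not pass (SE 0.213, limma adjusted p = 0.488). None of the 5 probe sets of GCNT1, GCNT2, GCNT3 and GCNT4, the core 2 and I-branching enzymes, passed by limma, and 1 had an unadjusted p under 0.05. It was a probe set of GCNT3, the mucin-type core 2 and core 4 enzyme, at 0.345 (SE 0.136, limma adjusted p = 0.199) and 0.115 on the other. GCNT1, the leukocyte-type core 2 enzyme, differed by -0.18.

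Among the B3GNT enzymes, which add GlcNAc to galactose or GalNAc and so extend poly-N-acetyllactosamine or start core 3, B3GNT4 rose. It read 6.12 and 6.06 in 2D and 7.12 and 6.75 in 3D on 1 of its 3 probe sets. The groups were separate, and 3D replicate 2 was the highest array. The rise was 1.80-fold (log2 fold change 0.845, SE 0.145, n = 2, limma adjusted p = 0.0298), with a replicate 1 difference of 2.01 from a 2D value of 3.20 that is below that array's lower quartile. Of the others, 1 differed by 0.415 (limma adjusted p = 0.174) and 1 by 0.02 (limma adjusted p = 0.959). The remaining 6 genes of this group, B3GNT2, B3GNT3, B3GNT6, B3GNT7, B3GNT8 and B3GNTL1, lay between -0.215 and 0.11 and did not pass.

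The galactosyltransferases held 1 call. B3GALT5, which makes type 1 chains that carry Lewis antigens, read 5.28 and 5.36 in 2D and 4.82 and 4.85 in 3D, with both 3D arrays lower. The fall was 1.40-fold (log2 fold change -0.485, SE 0.0994, n = 2, limma adjusted p = 0.0453). All 4 values lie below the arrays' lower quartiles of 5.64 to 5.67, which leaves its size uncertain, and it was the only called member that was dim. B3GALT4, a ganglioside enzyme, differed by 0.445 without passing (limma adjusted p = 0.110). None of the 12 probe sets of the 7 B4GALT enzymes, which make the lactosamine unit of N- and O-glycans or, for B4GALT7, part of the linkage of glycosaminoglycans to protein, passed by limma, and 1 had an unadjusted p under 0.05. That was B4GALT5, a lactosylceramide synthase, which read 6.64 and 7.03 in 2D and 5.96 and 6.54 in 3D, both 3D arrays below both 2D arrays (-0.585, SE 0.223, limma adjusted p = 0.185). B4GALT1, the main galactosyltransferase of N-glycans, differed by -0.015 and -0.07 on its 2 probe sets.

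Of the 29 sialyltransferase probe sets, of 19 genes, 1 was called. ST6GALNAC1 links sialic acid directly to the first GalNAc and so makes the sialyl-Tn antigen. On 1 of its 3 probe sets it read 7.02 and 7.13 in 2D and 7.95 and 7.89 in 3D. The arrays of each group lay close together and the groups far apart, a 1.80-fold rise (log2 fold change 0.845, SE 0.103, n = 2, limma adjusted p = 0.0139). The replicate 1 pair went against it, with 5.66 in 2D and 4.86 in 3D. The other probe sets of the gene did not settle it: 1 differed by 0.495 (limma adjusted p = 0.0652) and 1 by -0.27 (limma adjusted p = 0.180), both dim.

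The 11 probe sets of the ST3GAL enzymes, which cap galactose with sialic acid, gave 0 calls by limma and 3 with an unadjusted p under 0.05. Of them 8 lay below 0, with a median of -0.14, and for 5 both 3D arrays were below both 2D arrays (26.7% of all probe sets did so). ST3GAL6, which acts on type 2 chains, came closest to passing: it read 10.35 and 10.61 in 2D and 10.01 and 10.11 in 3D (-0.42, SE 0.125, limma adjusted p = 0.109), and differed by -0.05 on its second probe set. ST3GAL1, which caps core 1, differed by -0.08 and 0.08. ST6GAL1, which adds alpha-2,6 sialic acid to N-glycans, differed by 0.245 (SE 0.141, limma adjusted p = 0.371) with 3D values of 7.39 and 7.75 against 7.32 and 7.33. The 8 probe sets of the ST8SIA enzymes, which build disialic and polysialic chains, lay between -0.14 (ST8SIA5) and 0.165, with 0 at an unadjusted p under 0.05, and 5 of the 8 were dim.

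FUT8, the only enzyme that adds the core fucose of N-glycans, rose. It read 9.39 and 9.20 in 2D and 9.88 and 9.85 in 3D, so that the 3D arrays agreed closely and both lay above the 2D arrays. The rise was 1.48-fold (log2 fold change 0.57, SE 0.111, n = 2, limma adjusted p = 0.0404, and 0.0572 under trend and robust priors), and replicate 1 differed by 0.26. The other 9 fucosyltransferase probe sets, of 7 genes, did not pass and lay between -0.25 and 0.155. FUT1 and FUT2, which make the H antigen, were at -0.25 and 0.03.

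The enzymes that branch N-glycans had 2 of their 8 probe sets lower, where 2.96% of all probe sets were, and both calls had the opposite sign in replicate 1. MGAT4C, a relative of the enzymes that start a further antenna, showed the largest fall of all members. It read 8.28 and 8.03 in 2D and 6.45 and 6.80 in 3D, with a wide gap between the groups. The fall was 2.89-fold (log2 fold change -1.53, SE 0.157, n = 2, limma adjusted p = 0.0104). The replicate 1 pair was in the opposite order, 5.26 in 2D and 5.95 in 3D (0.69). With all 6 arrays in 1 fit the MGAT4C value was -0.79 and did not pass.

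MGAT2, which adds GlcNAc to the second arm and so completes the biantennary core, fell on 1 of its 2 probe sets. On that one it read 11.00 and 11.04 in 2D and 10.46 and 10.58 in 3D, all of the 3D values lower (-0.50, SE 0.103, limma adjusted p = 0.0458, and 0.0643 under trend and robust priors). On the other it read 11.54 and 11.49 in 2D and 11.35 and 11.64 in 3D, with overlap (-0.02, limma adjusted p = 0.959), and in replicate 1 both probe sets were higher in 3D, by 0.20 and 0.25. MGAT4B, which makes an antenna of complex N-glycans, was the member of the group with the highest value, 0.68, but its 3D arrays differed from each other (12.09 and 11.52, against 11.13 and 11.12 in 2D) and it did not pass (SE 0.190, limma adjusted p = 0.0945). MGAT5, which makes the branch that carries long lactosamine chains, read 6.35 and 6.34 in 2D and 6.02 and 5.96 in 3D (-0.355, SE 0.0979, limma adjusted p = 0.0915), and MGAT3, which adds the bisecting GlcNAc, differed by -0.125. No member probe set carries the symbol MGAT1, NDST1 or C1GALT1C1, and these genes were not analysed here.

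The ALG enzymes, which assemble the lipid-linked oligosaccharide that is transferred to nascent proteins, gave 0 calls by limma in 20 probe sets of 10 genes, with 3 at an unadjusted p under 0.05. For 16 of them the difference was under 0.25. ALG12, a mannosyltransferase with 4 probe sets, lay between -0.07 and -0.015 on all of them. ALG14, a subunit of the enzyme that adds the second GlcNAc, read 6.34 and 6.79 in 2D and 7.41 and 7.10 in 3D, a separation that did not pass given the spread within groups (0.69, SE 0.184, limma adjusted p = 0.0848; replicate 1 -0.17).

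The O-mannosyltransferases POMT1 and POMT2 together start the glycans by which dystroglycan binds laminin. All 8 of their probe sets lay above 0, between 0.11 and 0.595, but 0 passed by limma, and 4 had an unadjusted p under 0.05. In 6 of the 8 both 3D arrays lay above both 2D arrays, which is so for 25.1% of all probe sets; the 8 report on 2 genes and are not independent. POMT1 read 8.59 and 8.50 in 2D and 9.30 and 8.98 in 3D on the probe set that came nearest to passing (0.595, SE 0.136, limma adjusted p = 0.0590), and differed by 0.45 and 0.11 on the others. In each of the 8 the higher 3D array was replicate 2. In replicate 1 the median difference of the 8 was -0.155, near the -0.14 over all probe sets, so a rise was not seen there.

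Heparan sulfate enzymes gave 3 calls in 20 probe sets of 14 genes, each of them higher in 3D, where 3.65% of all probe sets and 5.09% of all named genes were called higher. Of the 3, only EXTL3 had the same sign in replicate 1, in which the median of the 20 probe sets was -0.58 (-0.14 over all probe sets). EXT2, which forms the polymerizing complex with EXT1, read 11.26 and 11.29 in 2D and 12.33 and 11.91 in 3D on 1 of 2 probe sets. Both 3D arrays were higher, 3D replicate 2 the more so (0.845, SE 0.155, n = 2, limma adjusted p = 0.0346). On its second probe set EXT2 read 9.56 and 9.66 in 2D and 10.46 and 9.93 in 3D, in the same order (0.585, limma adjusted p = 0.120). The replicate 1 differences were 0.00 and -0.13. EXT1 differed by 0.22 and 0.215 (limma adjusted p = 0.248 and 0.332) and by -1.06 and -0.96 in replicate 1.

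EXTL3, which adds the GlcNAc that commits a chain to heparan sulfate, read 6.20 and 6.25 in 2D and 6.76 and 6.66 in 3D. Both 3D arrays lay above both 2D arrays, by amounts well over the spread within each group. The log2 fold change was 0.485 (SE 0.102, n = 2, limma adjusted p = 0.0478), and 0.07 in replicate 1. The limma adjusted p was 0.0540 after median centring, and 0.0501 when the variance prior was a robust trend. All 8 probe sets of the EXT and EXTL genes lay above 0, from 0.09 upwards, 6 of them without overlap, which is so for 25.1% of all probe sets with 3D above; the 8 report on 5 genes. In replicate 1 their median was -0.065, against -0.14 over all probe sets, with a range from -1.06 to 1.23. Their signs there were mixed.

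NDST2, a bifunctional enzyme that removes acetyl groups from the chain and sulfates the nitrogen, rose on 1 of 2 probe sets. It read 7.71 and 7.67 in 2D and 8.22 and 8.32 in 3D there, a 1.49-fold rise with tight groups (log2 fold change 0.58, SE 0.101, n = 2, limma adjusted p = 0.0312). The other probe set differed by 0.37 (limma adjusted p = 0.198), and both were lower in 3D in replicate 1, by -0.52 and -0.97. HS2ST1, the single 2-O-sulfotransferase of heparan sulfate, differed by 0.315 (limma adjusted p = 0.258), and the HS3ST and HS6ST genes, which place the rarer 3-O and the 6-O sulfates, lay between -0.115 and -0.005. NDST3 and NDST4 lay between -0.20 and -0.07, and all 3 NDST4 probe sets were dim.

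Among the sulfotransferases of other chains, CHST1, which sulfates the galactose of keratan sulfate, rose. It read 6.90 and 6.85 in 2D and 7.36 and 7.38 in 3D, with the smallest SE of the 9 probe sets that rose, for a 1.41-fold difference (log2 fold change 0.495, SE 0.0976, n = 2, limma adjusted p = 0.0419). In replicate 1 it read 1.89 in 2D, below the array's lower quartile, and 4.22 in 3D. CHST4, which sulfates GlcNAc on mucin chains, read 9.59 and 9.89 in 2D and 10.26 and 10.03 in 3D without passing (0.405, SE 0.145, limma adjusted p = 0.164). The other 13 of the 15 CHST probe sets lay between -0.26 and 0.185.

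For the genes with several probe sets, the sets did not always tell the same story. Of these 38 genes, 25 had all probe sets on the same side of 0, and the median range of the log2 fold change over the probe sets of a gene was 0.17. The widest, 1.115, was that of ST6GALNAC1. Probe sets whose name ends in _s_at can match several transcripts, and 50 of the 166 members are of this kind, among them 3 of the 14 called. When the probe sets of each gene were averaged and the mean tested, 5 of 111 genes were higher and 3 lower, against 3.74% and 3.89% of all named genes (7.63% together). GALNT12 rose by 1.43 (limma adjusted p = 0.00320) and GALNT3 fell by -0.76 (limma adjusted p = 0.0321) in that fit, and NDST2 kept its call (0.475, limma adjusted p = 0.0386), as did FUT8, EXTL3, CHST1, B3GALT5 and MGAT4C with their single probe set. EXT2 (0.715, limma adjusted p = 0.0535), ST6GALNAC1 (0.36, limma adjusted p = 0.0778), B3GNT4 (0.43, limma adjusted p = 0.0844) and MGAT2 (-0.26, limma adjusted p = 0.193) did not pass.

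**Figure D3:**
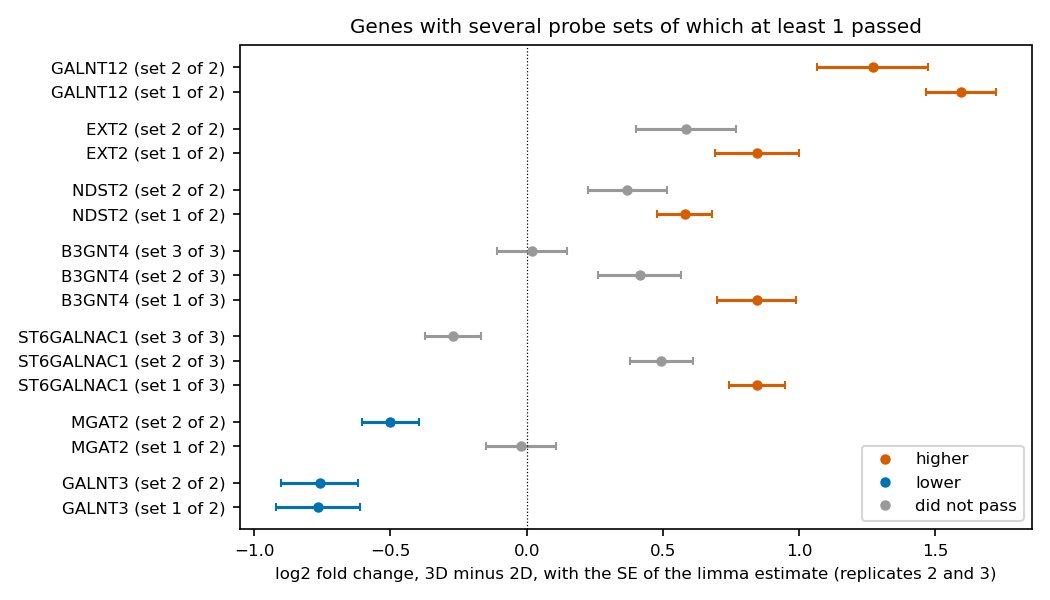
Log2 fold change (x axis, 3D minus 2D, replicates 2 and 3) of every probe set of the 7 genes that have several probe sets and at least 1 call (y axis); bars are the SE of the limma estimate, and orange, blue and grey mark higher, lower and not passed. Both sets of GALNT12 and of GALNT3 passed, whereas for ST6GALNAC1 the 3 sets run from 0.845 down to -0.27.

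The replicate 1 pair was far more scattered, for these enzymes as over all probe sets. Its median absolute difference over the members was 0.68, against 0.14 on replicates 2 and 3 (0.66 and 0.145 over all probe sets). The former is a difference of single arrays and the latter one of means of 2 arrays. Of 166 members 28 were at least 2-fold higher in 3D in replicate 1 and 29 at least 2-fold lower. Over all probe sets 14.3% were higher and 19.7% lower by as much (34.0% together). For the 35 dim members the median absolute difference was 1.33, and for the other 131 it was 0.58. Of the 14 called probe sets 9 had the same sign in replicate 1 (64.3%, against 73.9% of all called probe sets), 4 the opposite sign and EXT2 a difference of 0.

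The largest replicate 1 differences belonged mostly to members that were flat on the other arrays, where 72.3% of all members differed by under 0.25. The 5 lowest rest on 3D values under the lower quartile of that array (3.38). The 5 highest rest on 2D values under that of theirs (3.52), so the size of all of them is uncertain. ST8SIA6, an alpha-2,8-sialyltransferase, differed by -5.66 (5.15 in 2D and -0.51 in 3D) against 0.095 on replicates 2 and 3, and GALNT5 by -3.89 against 0.015. MGAT5B, ST8SIA1 and GALNT9 followed at -2.88, -2.69 and -2.49, none of them with a difference over 0.165 on replicates 2 and 3. At the other end were both GALNT12 probe sets and CHST1, which were called, and GALNT14 (3.07) and ST3GAL1 (2.61), which were not.

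**Figure D4:**
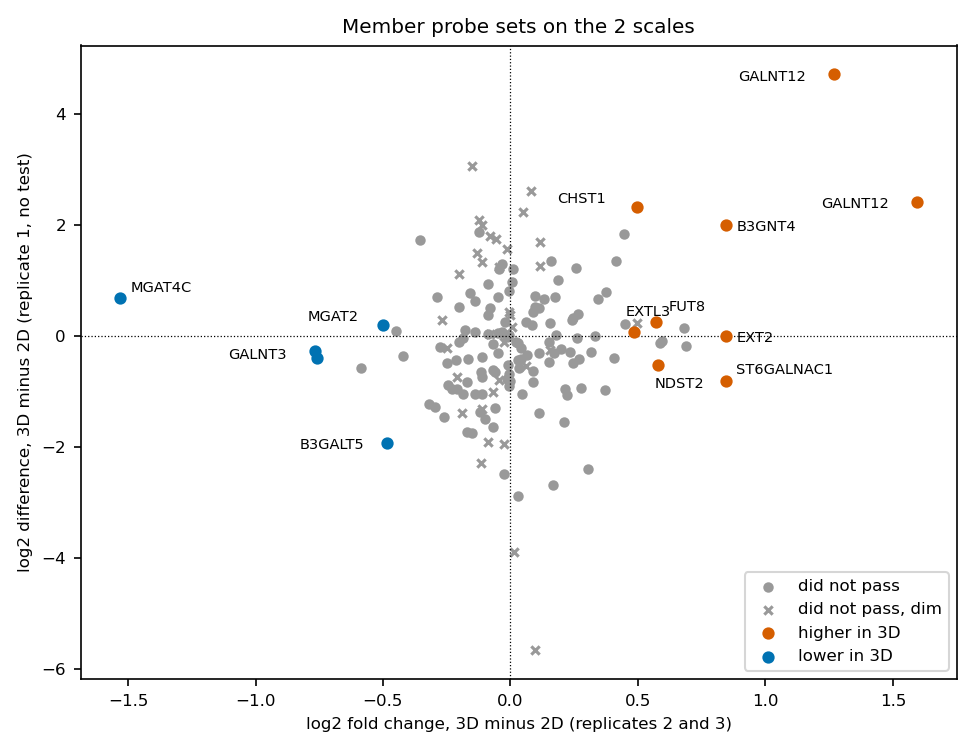
Each point is a member probe set, with its log2 fold change on replicates 2 and 3 on the x axis and its replicate 1 difference, which has no test, on the y axis; crosses are dim probe sets that did not pass, and the called genes are named. The cloud is much taller than it is wide; both GALNT12 points, B3GNT4 and CHST1 lie at 2.01 or more on the y axis, and MGAT4C lies at -1.53 on the x axis but above 0 on the y axis.

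The partners of these enzymes were taken from 10 lists with 182 symbols, of which 151 had probe sets (323 in all). By limma, 24 of the 323 probe sets were higher and 9 lower, 10.2% together against the 6.61% of all probe sets, and the median log2 fold change was 0.01. By genes, 19 of 151 had a probe set called higher and 5 one called lower, against 5.09% and 4.95% of all named genes. Of the 33 called probe sets 21 had the same sign in replicate 1 (63.6%, against 73.9% of all called probe sets) and 12 the opposite sign. With all 4 arrays 96 of the 323 had an unadjusted limma p under 0.05. As for the members, leaving out 1 array leaves a group with 1 array and cannot judge the calls, and the called probe sets kept their sign.

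The supply of UDP-GlcNAc, from which GlcNAc and GalNAc and the precursor of sialic acid are made, held 2 genes that fell. GFPT1 catalyses the first, rate-limiting step of the hexosamine pathway and GNPNAT1 the acetylation that follows. GFPT1 read 9.40 and 9.43 in 2D and 8.94 and 8.91 in 3D on 1 probe set (-0.49, limma adjusted p = 0.0424), with -0.505 on another called one and -0.425 on the last, which did not pass. Under trend and robust priors neither GFPT1 call was kept (limma adjusted p = 0.0644 and 0.0653). GNPNAT1 read 10.06 and 10.12 in 2D and 8.99 and 9.24 in 3D (-0.975, SE 0.121, limma adjusted p = 0.0145), with a second call at -0.86 and -0.62 on the remaining one, which did not pass. Both genes had all probe sets below 0, and the called ones were lower in replicate 1 as well, by -1.27 and -1.13 for GFPT1 and by -0.61 and -0.58 for GNPNAT1. In the same list PMM1, a phosphomannomutase (0.78, limma adjusted p = 0.0223, on 1 of 4 probe sets), and GALT, of galactose use (0.745, limma adjusted p = 0.0440, on 1 of 4), were higher, and 18 of 22 genes did not pass. In replicate 1 these calls of PMM1 and GALT differed by 0.63 and -0.02. By probe sets 2 of 53 of the list were called higher and 4 lower (3.77% and 7.55%), against 3.65% and 2.96% of all probe sets. The sugar transporters of the Golgi gave 0 calls by limma in 20 probe sets of 10 genes, with 6 at an unadjusted p under 0.05.

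On the N-glycan route, 2 of 41 probe sets of the oligosaccharyltransferase and dolichol list (4.88%) and 4 of 26 of the trimming list (15.4%) were called higher, and 0 of either lower, where 3.65% of all probe sets were higher and 2.96% lower. Of 17 oligosaccharyltransferase and dolichol genes 2 were higher, DOLK, which phosphorylates dolichol (0.625, limma adjusted p = 0.0305), and SRD5A3, which makes dolichol from polyprenol (0.545, limma adjusted p = 0.0359, and 0.0534 under trend and robust priors), and 15 did not pass. Of 14 trimming genes 3 were higher. MAN2A1, the Golgi mannosidase that prepares the glycan for MGAT2, read 9.33 and 9.20 in 2D and 10.05 and 9.85 in 3D (0.685, limma adjusted p = 0.0306), and was called on its second probe set too (0.53), a call lost after median centring (limma adjusted p = 0.0514) and under trend and robust priors (0.0600). MAN1C1, a Golgi mannosidase (0.805 from a dim level), and EDEM2, of glycoprotein degradation (0.58), were the others. In replicate 1 the 2 MAN2A1 probe sets differed by -0.16 and 0.17 and the called one of EDEM2 by -0.17. That of MAN1C1 differed by 3.09, from a 2D value of 2.07 below that array's lower quartile (3.52). The call of EDEM2 was lost after median centring (limma adjusted p = 0.0524) and under trend and robust priors (0.0617).

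Among 19 partners in heparan and chondroitin sulfate synthesis 3 were higher and 0 lower. By probe sets these were 3 of 43 (6.98%), where 3.65% of all probe sets were called higher, and the median of the list was 0. SULF2, which removes 6-O sulfates outside the cell, read 7.71 and 7.76 in 2D and 8.66 and 8.85 in 3D (1.02, SE 0.112, limma adjusted p = 0.0116), on 1 of 5 probe sets of which the lowest was at -0.51. On that lowest one both 3D arrays lay below both 2D arrays, and it narrowly missed a call as lower (limma adjusted p = 0.0503). The probe sets of SULF2 thus disagreed in direction. GLCE, the epimerase that makes iduronic acid (0.69, but -1.06 in replicate 1), and HPSE, which cleaves the chains (0.74, replicate 1 0.96), were higher as well, HPSE not after median centring (limma adjusted p = 0.0545). Of 17 proteoglycan core genes 1 was higher, with 2 of the 33 probe sets of the list called (6.06%, against 3.65% of all probe sets). This was VCAN, the chondroitin sulfate proteoglycan versican, called on both of its probe sets. It read 8.65 and 8.76 in 2D and 9.69 and 9.77 in 3D on 1 of them (1.025, SE 0.104, limma adjusted p = 0.0104) and differed by 1.08 on the other, whereas replicate 1 gave -0.18 and -0.68.

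For the O-mannose route 2 of 8 partner genes were higher, beside the POMT genes that did not pass. By probe sets these were 2 of 15 (13.3%), where 3.65% of all probe sets were called higher. B4GAT1, which adds glucuronic acid in the laminin-binding glycan, read 8.24 and 8.32 in 2D and 9.58 and 8.97 in 3D (0.995, SE 0.201, limma adjusted p = 0.0440). The second B4GAT1 probe set differed by 0.73 and did not pass (limma adjusted p = 0.0849). The substrate gene DAG1 read 10.05 and 9.96 in 2D and 10.80 and 10.64 in 3D on 1 of 4 probe sets (0.715, SE 0.110, limma adjusted p = 0.0229). The other DAG1 probe sets differed by 0.595, 0.47 and -0.08 and did not pass. In replicate 1 the called probe sets of B4GAT1 and DAG1 differed by -0.17 and -1.28. Of 13 mucin and sialomucin genes MUC20, a transmembrane mucin of the kidney, read 8.60 and 8.77 in 2D and 10.13 and 9.45 in 3D (1.105, SE 0.223, limma adjusted p = 0.0439), with 1.165 on a second probe set that did not pass, and CD164 was higher on 2 of 6 (1 of them not under trend and robust priors, limma adjusted p = 0.0557). The mucin list had 3 of 30 probe sets called higher (10.0%, against 3.65% of all probe sets) and 0 lower.

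In the list of sialidases and lectins 3 of 12 genes had a call, all of them galectins, which bind beta-galactosides on the cell surface, and 9 had none. Of all named genes 10.0% had a call. By probe sets 6 of 29 of the list were called (20.7%), against 6.61% of all probe sets. LGALS1, LGALS3, LGALS9 and LGALS12 did not pass and lay between -0.16 and 0.145. LGALS4, a galectin of the gut epithelium that sorts apical glycoproteins, read 6.16 and 6.48 in 2D and 8.14 and 7.95 in 3D (1.725, SE 0.144, limma adjusted p = 0.00689), on 1 of 3 probe sets, and -2.38 in replicate 1. LGALS2 was higher on both of its probe sets (0.695 and 0.775), and LGALS8 lower on 3 of 9 (-0.57 to -0.785), of which 2 were dim. In replicate 1 the called probe sets differed by -0.03 and 0.11 for LGALS2 and by -0.38, -0.10 and 2.50 for LGALS8. Among 19 other Golgi glycosyltransferases UGCG, which makes the glucosylceramide from which glycosphingolipids grow, fell. It read 10.51 and 10.75 in 2D and 9.33 and 9.48 in 3D (-1.225, SE 0.126, limma adjusted p = 0.0104), and -1.82 in replicate 1. UGT8, which makes galactosylceramide, was higher (0.92, limma adjusted p = 0.0131), as was GLT8D1 on both probe sets (0.855 and 0.61, and 1.77 and 1.17 in replicate 1), and OGT, the nuclear and cytosolic O-GlcNAc transferase, was lower on 1 of 7 (-0.62). Of the 33 probe sets of this list 3 were called higher and 2 lower (9.09% and 6.06%), against 3.65% and 2.96% of all probe sets. In replicate 1, 4 of these 5 had the same sign and 1, of UGT8 or OGT, the opposite sign.

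**Figure D5:**
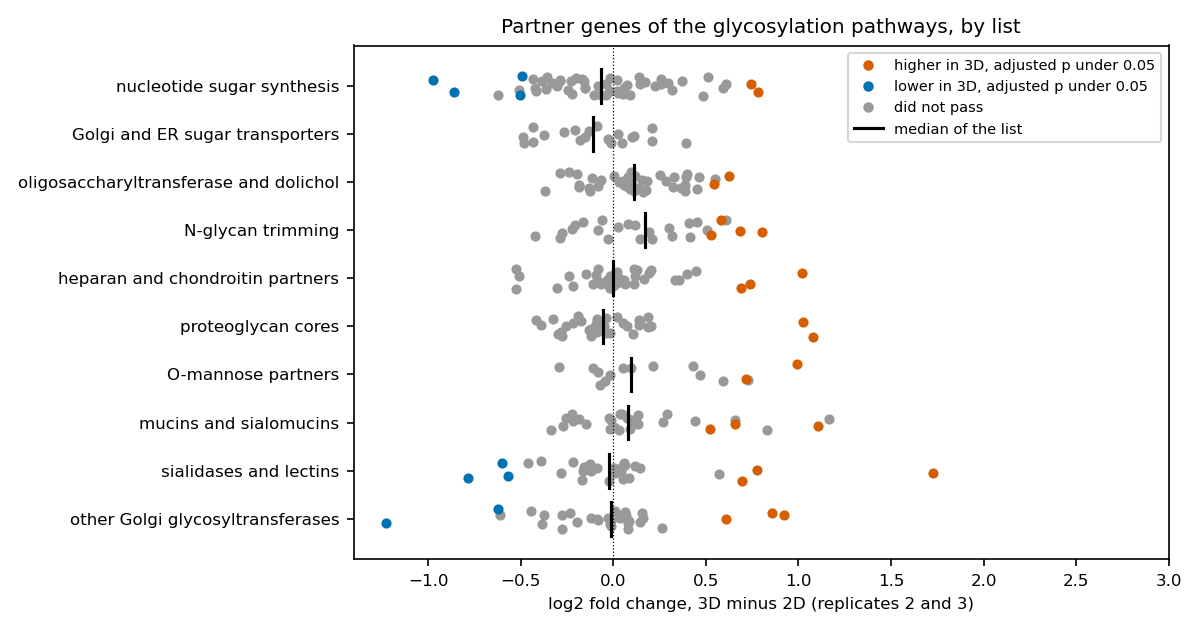
Log2 fold change (x axis, 3D minus 2D, replicates 2 and 3) of the 323 probe sets of the partner genes, by list (y axis); orange and blue points passed the limma test and black bars are the median of a list. LGALS4 at 1.725 and UGCG at -1.225 lie farthest out, and the blue points are found in 3 of the 10 lists.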

How the data were processed

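Per the submitters' processing notes the arrays were processed with RMA, and limma is named as well; versions, probe set definition and genome build are not given there. The deposited values were read as log2 expression values, 1 per probe set and array. For replicates 2 and 3 the log base rests on RMA and the range of the values, with array minima of 3.39 to 3.44. Both replicate 1 arrays reach down to -3.32, and how they came to another scale is not stated. Their log base was taken to be the same. Control probe sets (111 of 43035) were left out. Symbols come from the platform annotation: 29254 probe sets had 1 symbol, 439 several and 13231 none here. Of the 166 member probe sets, 159 had an Entrez identifier in the gene table of UU_Cfam_GSD_1.0, which served for names alone; 0 symbols had changed.

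Differences (3D minus 2D) were tested over 42924 probe sets two-sided with limma 3.58.1 (lmFit, eBayes; R 4.3.3) on the arrays of replicates 2 and 3, with Benjamini-Hochberg adjustment and a threshold of 0.05; the step was tested on simulated data. SE is that of the limma estimate. There was no filter on level. The number of arrays limits the precision, and p-values measure the spread between these arrays, which may be technical. Members and lists were chosen with earlier results of these data known. The named genes are all called members with their other probe sets, the member nearest to passing in each role without a call, the enzymes listed in any case (such as C1GALT1, GCNT1, MGAT3 and EXT1), the 5 highest and 5 lowest replicate 1 differences, and the called genes of each list, at most 4 a list; other members were added to describe their groups after their values were seen. Tables and plots used Python 3.11.15, pandas 2.3.3, numpy 2.4.6 and matplotlib 3.10.9. Alternatives covered the arrays used, normalization, replicate block, variance prior, dim probe sets and each array left out.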

Additional observations from a re-analysis of the deposited data

How the results depend on the processing

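The calls rest on the 4 arrays of replicates 2 and 3. With all 6 arrays limma called 0 member and 0 list probe sets higher and 0 lower. This held as deposited, after median centring, after quantile normalization and with the replicate block. At an unadjusted limma p under 0.05 these fits had 0, 3, 4 and 6 members and 0, 15, 15 and 25 list probe sets. Over all 42924 probe sets they called 0, 2, 2 and 0, with 105, 1424, 1775 and 2723 under that unadjusted p. Same-numbered samples of the 4 arrays showed no shared deviation (r = 0.00127). With 2 arrays per group the r is the same for both numbers by construction. It cannot show whether same-numbered samples were prepared together. A limma fit of the 4 arrays with the replicate block called 0 members and 0 list probe sets, and 0 of all 42924 probe sets. At an unadjusted p under 0.05 it had 27 members, 81 list probe sets and 8325 of all probe sets. Leaving out 1 array leaves a group with 1 array, too few to judge the calls by a test. The 14 called members kept their sign in all these fits. Under trend and robust priors 7 members were higher and 3 lower (EXTL3, FUT8, 1 GALNT3 probe set and MGAT2 lost their call, as did 6 list probe sets, of GFPT1, SRD5A3, EDEM2, MAN2A1 and CD164). Testing gene means left 5 genes higher. Median centring, a further quantile normalization and leaving out dim probe sets gave 8 to 9 members higher and 4 to 5 lower. After median centring EXTL3, EDEM2, HPSE and 1 MAN2A1 probe set lost their call. The cause of these changes was not tested.

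With all 6 arrays some values changed sign, given here as deposited (the same with the replicate block), median centred and quantile normalized. C1GALT1 was 0.0433, 0.0867 and 0.0483. ST3GAL1 was 0.1167, 0.1600 and 0.1422 on the probe set at -0.08. ST3GAL6 was 0.2033, 0.2467 and 0.2261 on the one at -0.05. ST8SIA5 was 0.1167, 0.1600 and 0.1256. MGAT2 was 0.0700, 0.1133 and 0.0433 on the one at -0.02. MGAT3 was 0.5400, 0.5833 and 0.4556, and MGAT5 0.3400, 0.3833 and 0.2333. EXT1 was -0.2067, -0.1633 and -0.1783 on 1 probe set and -0.1767, -0.1333 and -0.1558 on the other. NDST2 was -0.0767, -0.0333 and -0.0006 on the probe set that did not pass. LGALS8 was 0.4533, 0.4967 and 0.2544 on 1 called probe set. B3GNT4 was -0.0233 as deposited on the probe set at 0.02. With 1 array left out, these ran from -0.62 to 0.04 for C1GALT1, -0.03 to 0.26 for GCNT3, -0.125 to 0.165 for B3GNT4, -0.285 to 0.125 and -0.005 to 0.165 for ST3GAL1, -0.225 to 0.125 for ST3GAL6 and -0.165 to 0.125 for MGAT2, none of them called.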
